A study of Homo sapiens with 9 samples.

Results

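The small heat-shock proteins were followed in uCaco-2 by their 9 symbols in the deposited count table, HSPB1, HSPB2, HSPB3, HSPB6, HSPB7, HSPB8, HSPB9, HSPB11 and CRYAB, chosen by name from 60591 symbols. uCaco-2 are undifferentiated Caco-2 cells, an established line from a human colon adenocarcinoma, and they were kept for 24 h in 300 μM cobalt(II) chloride (CoCl2), in 5 μM of the oxyquinoline derivative 4896-3212 (OD), or in control medium without either compound. All 3 conditions contained 0.5% DMSO, and each had 3 libraries, called replicates 1, 2 and 3. CoCl2 and OD were used as chemical activators of hypoxia-inducible factor (HIF) signalling, so the comparisons ask how far 2 such activators move the same genes, in 1 cell line and at 1 dose and time each.

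Messenger RNA was sequenced to between 15998136 and 24209427 counts per library. Values are given as CPM, in which each library's counts are divided by its total over the genes that passed the expression filter and by its TMM factor. These factors were 1.11 to 1.12 in control, 0.770 to 0.795 in CoCl2 and 1.14 to 1.15 in OD. A count of 3 corresponded to 0.133 to 0.232 CPM. The labelled cell type was checked by 10 markers of Caco-2 epithelium, which summed to 10390 to 10844 CPM in control, 12390 to 13275 CPM in CoCl2 and 9924 to 10454 CPM in OD, with 8 or 9 of 10 at 1 CPM or more. KRT8 and KRT18 gave most of these sums, and VIL1 fell from 613 CPM in control to 112 CPM in CoCl2 and KRT20 from 4.49 to 1.74 CPM, both called. LGALS4 was called higher in CoCl2, from 0.337 ± 0.129 to 1.19 ± 1.19 CPM (SD, n = 3). Below the fold threshold 6 more of these markers were higher in CoCl2 at an adjusted p under 0.05 by edgeR. The median log2 fold change of the 9 tested markers was 0.28. Of 12 striated muscle markers, 3 reached 1 CPM in each condition and 3 to 5 had 0 counts throughout a condition, and their sum was 62.8 to 71.1 CPM in control, 31.6 to 36.8 CPM in CoCl2 and 48.2 to 48.6 CPM in OD. NEB fell with CoCl2, from 28.2 to 6.64 CPM, and ACTA1 rose, from 0.583 to 2.02 CPM. The muscle regulators MYOD1 and MYOG had 0 counts in every control and OD library and means of 0.087 and 0.047 CPM in CoCl2, below the limit of 3 counts. Of 8 lens markers 1 reached 1 CPM, with sums of 15.1 to 18.5, 10.1 to 11.0 and 6.13 to 7.56 CPM in the same order. The 10 markers of smooth muscle and fibroblasts summed to 847 to 869, 426 to 472 and 371 to 413 CPM. Single genes carried the last 2 sums, BFSP1 at 16.6 CPM in control and TAGLN at 829 CPM in control. The other smooth muscle and fibroblast markers moved both ways. PDGFRB and CNN1 were called lower in CoCl2, from 4.79 to 0.932 CPM and from 1.79 to 0.862 CPM. CNN1 was also called lower in OD, at 0.413 CPM. LUM rose in OD, from 0.331 to 1.15 CPM, and COL3A1 went from 5.14 to 8.35 CPM in CoCl2 below the fold threshold. LUM was at 0.149 CPM in CoCl2 and was high in OD alone, so its rise is not independent of the expression filter. The part of these markers in the results was not tested.

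Small heat-shock proteins are short chaperones built around a conserved α-crystallin domain. They bind unfolding proteins without using ATP, hold them soluble in large oligomers, and pass them to the ATP-driven HSP70 machinery. Some members are made on demand under proteotoxic stress, when heat-shock factor HSF1 binds repeats of the short unit GAA in alternating orientation near their start sites, while others are restricted to muscle, lens or testis. HSPB1 and CRYAB (αB-crystallin) are general stress chaperones that also associate with actin and intermediate filaments. HSPB8 works with the co-chaperone BAG3 to direct damaged proteins to autophagy. HSPB2, HSPB3, HSPB6 and HSPB7 are best known from heart and skeletal muscle, and HSPB9 from testis. HSPB11, named IFT25 in newer annotation, is a subunit of the intraflagellar transport complex B of cilia and not a stress chaperone.

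RefSeq start sites on GRCh38.p14 gave 8 promoter windows for 7 of the 9 members. CRYAB and HSPB2 were not matched. Each window held the 250 bases before the start, and both orientations of a pair of GAA units were searched on both strands, GAANNTTC and TTCNNGAA, where N is any base; the 2 motifs can share a unit. The windows of HSPB1, HSPB8 and HSPB6 held GAANNTTC, and these 3 genes had more counts in CoCl2 than in control. These windows are printed for both reasons. HSPB3 and HSPB9 also had more counts in CoCl2, but their windows held no GAANNTTC and are not printed. The printed windows were thus picked by motif and by counts together, and a link between motif and response was not tested. The HSPB1 window was chr7:76302423-76302672 on the plus strand, that of HSPB8 was chr12:119178681-119178930 on the plus strand, and that of HSPB6 was chr19:35757030-35757279 on the minus strand. Capitals mark the matches in the following sequences, written 5′ to 3′.
HSPB1: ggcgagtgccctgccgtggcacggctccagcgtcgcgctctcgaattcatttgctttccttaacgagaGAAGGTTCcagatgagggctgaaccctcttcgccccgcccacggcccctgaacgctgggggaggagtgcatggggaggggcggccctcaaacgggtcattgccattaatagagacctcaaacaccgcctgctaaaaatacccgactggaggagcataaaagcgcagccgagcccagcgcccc
HSPB8: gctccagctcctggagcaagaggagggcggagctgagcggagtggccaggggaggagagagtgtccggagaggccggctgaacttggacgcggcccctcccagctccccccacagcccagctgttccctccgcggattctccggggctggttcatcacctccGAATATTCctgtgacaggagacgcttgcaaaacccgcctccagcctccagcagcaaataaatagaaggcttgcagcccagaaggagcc
HSPB6: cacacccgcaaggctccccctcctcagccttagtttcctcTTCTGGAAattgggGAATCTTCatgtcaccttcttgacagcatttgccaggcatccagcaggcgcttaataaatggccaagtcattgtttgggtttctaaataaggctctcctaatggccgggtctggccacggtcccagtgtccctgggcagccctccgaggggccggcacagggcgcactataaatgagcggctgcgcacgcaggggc

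The matches were GAAGGTTC in HSPB1, starting 182 bases before the start site, GAATATTC in HSPB8 at 88 bases, and GAATCTTC in HSPB6 at 196 bases, where TTCTGGAA also lay at 210 bases. HSPB3 held TTCTTGAA at 242 bases, and no window of HSPB7, HSPB9 or HSPB11 held either motif. Among all 35116 promoter windows of this length, 5.78% held GAANNTTC, 6.62% held TTCNNGAA and 11.6% held at least 1 of them. Runs of 3 alternating units, which join the 2 motifs and overlap both, were in 0.441% of windows for either orientation of the first unit and in no member. The HIF core motif ACGTG was in 18.5% of windows and in no member, and its variant GCGTG was in 32.2% of windows and in those of HSPB6, HSPB7, HSPB9 and HSPB11. A match describes letters only, and binding was not measured.

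The expression filter kept 15944 symbols, among them 4 of the 9 members, HSPB1, HSPB8, HSPB11 and CRYAB. A gene was called when the edgeR quasi-likelihood test gave a Benjamini-Hochberg adjusted p under 0.05 and the log2 fold change was above 1 in size. With CoCl2, 3 members were called higher, which are HSPB1, HSPB8 and CRYAB, and HSPB11 was not called. The background was large, since 19.9% of all tested genes were called higher and 23.4% lower in this comparison. With OD no member was called, against a background of 13.3%, made of 9.09% higher and 4.16% lower. Between the treatments the same 3 symbols were called higher in CoCl2 than in OD, against 17.5% of genes called higher and 23.8% called lower. Each treatment was compared with the same control libraries, so the values of both are set side by side and are not independent.

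**Figure D1:**
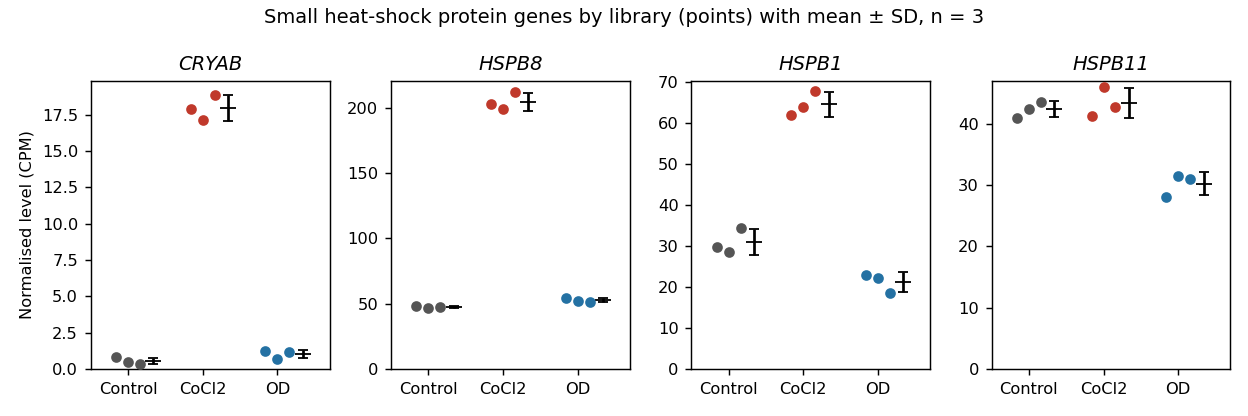
Normalised level (CPM, linear axes from 0 that differ between genes) of CRYAB, HSPB8, HSPB1 and HSPB11 in the 9 libraries, with points for single libraries and bars for the mean ± SD of 3. CRYAB stayed at or below 1.23 CPM in all control and OD libraries and lay between 17.1 and 18.9 CPM in CoCl2.

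CRYAB encodes αB-crystallin, the chaperone first described in the lens, and lies on chromosome 11 from 111908564 to 111923722 on the minus strand (GRCh38, GENCODE release 44), with 3 exons in its canonical transcript. It had 15, 10 and 6 counts in control replicates 1, 2 and 3, which is 0.807, 0.490 and 0.337 CPM. In CoCl2 it had 288, 221 and 360 counts, or 17.9, 17.1 and 18.9 CPM, and in OD 27, 16 and 22 counts, or 1.23, 0.710 and 1.17 CPM. Every CoCl2 library was thus far above every control and OD library, while OD replicate 2 lay below control replicate 1. In bulk RNA a higher level in all cells and a greater share of expressing cells cannot be told apart. The mean rose from 0.545 ± 0.240 CPM (SD, n = 3) to 17.97 ± 0.889 CPM in CoCl2, a log2 fold change of 5.03 with a standard error of 0.17 and a 95% confidence interval of 4.68 to 5.37, equal to 32.7-fold. The adjusted p by edgeR was 2.73e-36, and CRYAB ranked 106 of 15944 tested genes by the size of its change, either way. The OD mean was 1.04 ± 0.283 CPM, with a log2 fold change of 0.90 (standard error 0.31, interval 0.28 to 1.53) and an adjusted p of 0.00954 by edgeR, under the fold threshold for a call. Between the treatments the log2 fold change was 4.13, with a standard error of 0.15 and an adjusted p of 2.95e-35 by edgeR, higher in CoCl2.

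The OD difference of CRYAB rested on few counts. Its adjusted p ranged up to 0.118 over 16 alternative settings and stayed under 0.05 in 13 of them. Without control replicate 1 the log2 fold change was 1.30, and without OD replicate 2 it was 1.13, both calls, whereas without control replicate 3 it was 0.67 with an adjusted p of 0.0789 by edgeR, and without OD replicate 1 it was 0.75 with an adjusted p of 0.0615. CRYAB shares 13.6% of its exonic bases with genes on the opposite strand, HSPB2, the readthrough gene HSPB2-C11orf52 and C11orf52. HSPB2 and the readthrough gene had 0 counts in all 9 libraries and C11orf52 had 0 to 2. The lens marker CRYAA, which encodes the αA partner of αB-crystallin in the lens, had 0 counts in every library.

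HSPB8, the partner of BAG3 in selective autophagy, is annotated on chromosome 12 from 119171555 to 119224855 on the plus strand, with 3 exons in its canonical transcript. Its 250-base window with GAATATTC lies before the RefSeq start inside that span. HSPB8 was at 48.0, 46.3 and 47.5 CPM in the control replicates and at 203, 199 and 212 CPM in the CoCl2 replicates. The OD replicates were at 54.3, 52.0 and 51.6 CPM, all above the highest control and all far below the lowest CoCl2 library. With CoCl2 the mean rose from 47.3 ± 0.878 to 205 ± 6.93 CPM (SD, n = 3), a log2 fold change of 2.11 (standard error 0.049, interval 2.02 to 2.21), equal to 4.33-fold, with an adjusted p of 1.22e-45 by edgeR. With OD the mean was 52.6 ± 1.44 CPM, and the log2 fold change of 0.16 (standard error 0.052, interval 0.051 to 0.26) had an adjusted p of 0.00768 by edgeR without reaching the fold threshold. Between the treatments HSPB8 differed by a log2 fold change of 1.96, with a standard error of 0.048 and an adjusted p of 2.61e-44 by edgeR.

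HSPB1, the chaperone also known as HSP27, lies on chromosome 7 from 76302673 to 76304295 on the plus strand and has 3 exons in its canonical transcript. Its control replicates were at 29.8, 28.4 and 34.4 CPM, its CoCl2 replicates at 61.9, 63.8 and 67.7 CPM, and its OD replicates at 22.9, 22.1 and 18.4 CPM. The 3 conditions did not overlap, with CoCl2 above control and OD below it. The CoCl2 mean was 64.5 ± 2.96 CPM against 30.9 ± 3.14 CPM in control (SD, n = 3), a log2 fold change of 1.07 (standard error 0.065, interval 0.94 to 1.20), equal to 2.096-fold, with an adjusted p of 3.71e-22 by edgeR. The OD mean was 21.2 ± 2.40 CPM, a log2 fold change of -0.54 (standard error 0.073, interval -0.68 to -0.39) with an adjusted p of 3.95e-09 by edgeR, not past the fold threshold. Between the treatments the log2 fold change was 1.60, with a standard error of 0.068 and an adjusted p of 1.20e-29 by edgeR. The CoCl2 call lay close to the fold threshold. When only library size was used for scaling, in place of TMM, HSPB1 had a log2 fold change of 0.56 with an adjusted p of 8.64e-10 by edgeR and was no longer called. Of all 75-base windows of the HSPB1 exons, 4.26% also occurred elsewhere on the chromosomes; the pseudogenes HSPB1P1 and HSPB1P2 had 0 to 1 and 0 to 4 counts.

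HSPB11 (IFT25), the ciliary transport subunit, lies on chromosome 1 from 53916574 to 53945699 on the minus strand, with 6 exons in its canonical transcript. It was at 41.0, 42.4 and 43.6 CPM in the control replicates, 41.2, 46.0 and 42.8 CPM in CoCl2, and 28.0, 31.5 and 31.0 CPM in OD. The CoCl2 libraries overlapped the control libraries, and all OD libraries were below both. Means were 42.3 ± 1.30, 43.4 ± 2.45 and 30.2 ± 1.90 CPM (SD, n = 3) for control, CoCl2 and OD. The log2 fold change with CoCl2 was 0.031, with a standard error of 0.061, a 95% confidence interval of -0.090 to 0.15 and an adjusted p of 0.637 by edgeR. With OD it was -0.49 (standard error 0.061, interval -0.61 to -0.37) with an adjusted p of 2.21e-10 by edgeR, not past the fold threshold, and CoCl2 exceeded OD by 0.52 on the log2 scale with an adjusted p of 2.71e-11. When only library size was used, the CoCl2 difference of HSPB11 from control was -0.47 with an adjusted p of 2.86e-09 by edgeR, and its difference from OD reversed to -0.027. That scaling moved the median log2 fold change of all tested genes from -0.049 to -0.55 for CoCl2 against control, and the share of calls that were higher from 46.0% to 23.9%, or from 42.4% to 18.3% for CoCl2 against OD.

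With CoCl2 the libraries of 3 of the 4 tested members lay wholly above the control libraries, where 40.5% of all tested genes did so, and the same 3 lay wholly above OD, as did HSPB11, where 40.3% of genes did so. With OD, HSPB1 and HSPB11 lay wholly below the control libraries (34.3% of all genes) and HSPB8 wholly above (33.7%). By an adjusted p under 0.05 alone, OD raised HSPB8 and CRYAB, against 32.3% of all genes, and lowered HSPB1 and HSPB11, against 33.3%. By the same rule 4 members were higher in CoCl2 than in OD, against 40.2%. These shares of all genes are so large that the counts of members are given as a description. A single gene compared by an exact two-sided permutation test of 3 libraries against 3 cannot go below p = 0.1, so the adjusted values above come from the fit across all genes.

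**Figure D2:**
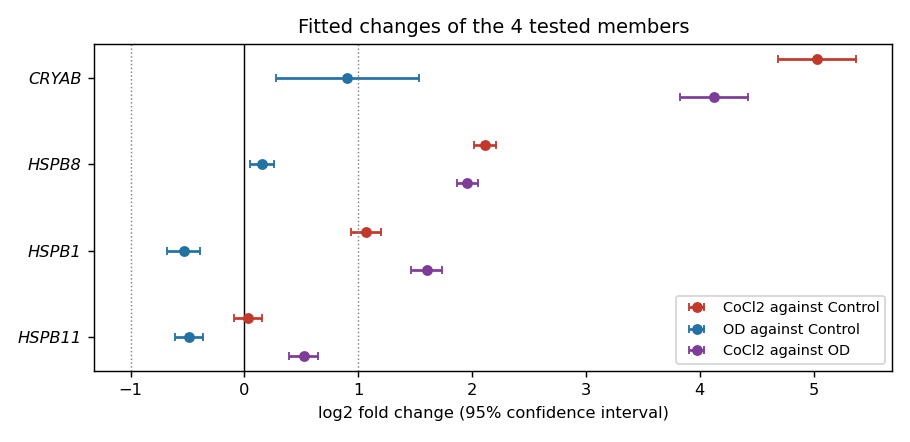
Log2 fold change with its 95% confidence interval for HSPB1, HSPB8, HSPB11 and CRYAB in the 3 comparisons between control, CoCl2 and OD, with dotted lines at the fold threshold for a call. The 4 intervals for OD spread to both sides of 0 (HSPB1 at -0.54, CRYAB at 0.90), while those for CoCl2 run from 0.031 for HSPB11 to 5.03 for CRYAB.

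Levels of different members were compared per kilobase of canonical transcript. Its length is 685 bases for HSPB11, 777 for HSPB1, 1861 for HSPB8 and 774 for CRYAB. All annotated exons together cover 3006, 1623, 3581 and 4388 bases in the same order of genes. The order of levels rests on the canonical length and could differ with another length, which was not tried. In control HSPB11 was highest at 61.8 ± 1.89 CPM per kb (SD, n = 3), followed by HSPB1 at 39.7 ± 4.04, HSPB8 at 25.4 ± 0.472 and CRYAB at 0.704 ± 0.310, and no neighbours in this order overlapped. In CoCl2 the order changed to HSPB8 at 109.9 ± 3.73 CPM per kb, HSPB1 at 83.0 ± 3.81, HSPB11 at 63.3 ± 3.58 and CRYAB at 23.2 ± 1.15, again without overlap between neighbours. In OD HSPB11 was again first at 44.1 ± 2.77 CPM per kb. HSPB8 at 28.3 ± 0.771 and HSPB1 at 27.2 ± 3.09 overlapped there, and CRYAB was last of the 4 at 1.34 ± 0.366.

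Ratios of counts within 1 library do not depend on the scaling between libraries. These pairs were chosen after their values were seen. There were 1.12 ± 0.047 counts of HSPB8 per count of HSPB11 in control (SD, n = 3), 4.73 ± 0.359 in CoCl2 and 1.75 ± 0.162 in OD, and the 3 conditions did not overlap. For HSPB1 per HSPB11 the ratios were 0.728 ± 0.060, 1.49 ± 0.099 and 0.704 ± 0.113, where CoCl2 lay above both and OD overlapped control. CRYAB per HSPB11 stood at 0.0130 ± 0.0061, 0.416 ± 0.038 and 0.0347 ± 0.011. HSPB8 per count of its co-chaperone BAG3 went from 0.989 ± 0.036 in control to 0.336 ± 0.019 in CoCl2 and 0.871 ± 0.014 in OD, again without overlap. BAG3 was thus raised by more than HSPB8 within the same libraries. The exact permutation p was 0.1, the smallest this design allows, for each of these ratios against control except HSPB1 per HSPB11 in OD, where it was 0.8.

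**Figure D3:**
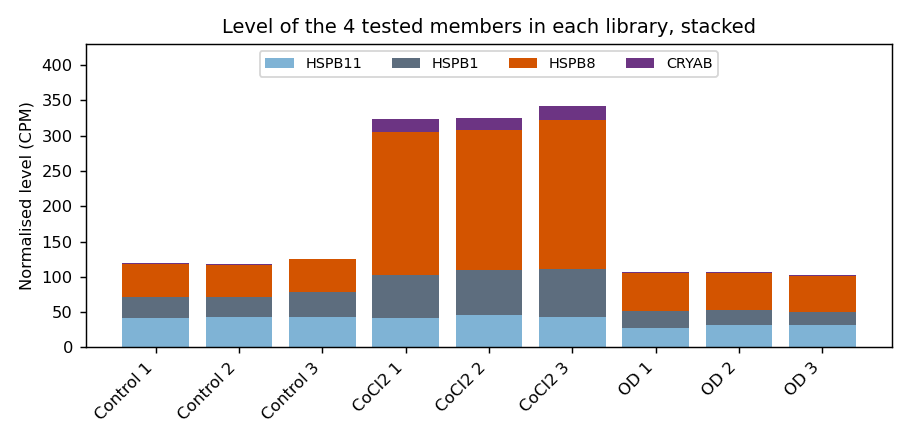
CPM of the 4 tested members in each of the 9 libraries as stacked bars from 0, coloured by HSPB11, HSPB1, HSPB8 and CRYAB. Levels are not per length here, so longer transcripts weigh more. The sums of all 9 members, of which these 4 make up nearly all, were 117.7 to 125.8 CPM in control, 324 to 342 CPM in CoCl2 and 103 to 107 CPM in OD.

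Summed over the 9 members, the family took 121 ± 4.23 CPM in control (SD, n = 3), 331 ± 9.62 CPM in CoCl2 and 105 ± 2.28 CPM in OD. The 3 conditions did not overlap, and the sum in CoCl2 was 2.74-fold that of control while in OD it was 0.869-fold, each with an exact permutation p of 0.1. HSPB8 gave 39.1 ± 1.21% of the summed counts in control, 61.7 ± 0.906% in CoCl2 and 50.01 ± 1.03% in OD. HSPB11 gave 35.0%, 13.1% and 28.7%, HSPB1 25.4%, 19.4% and 20.1%, and CRYAB 0.453%, 5.42% and 0.986%. The sum without HSPB8 was 1.72-fold that of control in CoCl2 and 0.713-fold in OD.

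The other 5 members did not pass the expression filter in any comparison. HSPB2, on chromosome 11 from 111912734 to 111914093 on the plus strand, and HSPB7, on chromosome 1 from 16014028 to 16019594 on the minus strand, are muscle members and had 0 counts in all 9 libraries. At this depth 0 counts allow up to 0.133 to 0.232 CPM per library, by the limit of 3 counts. Of the exonic bases of HSPB2, 85.3% are shared on the same strand with the readthrough gene HSPB2-C11orf52, which was also at 0. How reads that fit both genes were counted is not given in the sources used here. Such reads may have been left out of both, so the limit may not hold for HSPB2.

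**Figure D4:**
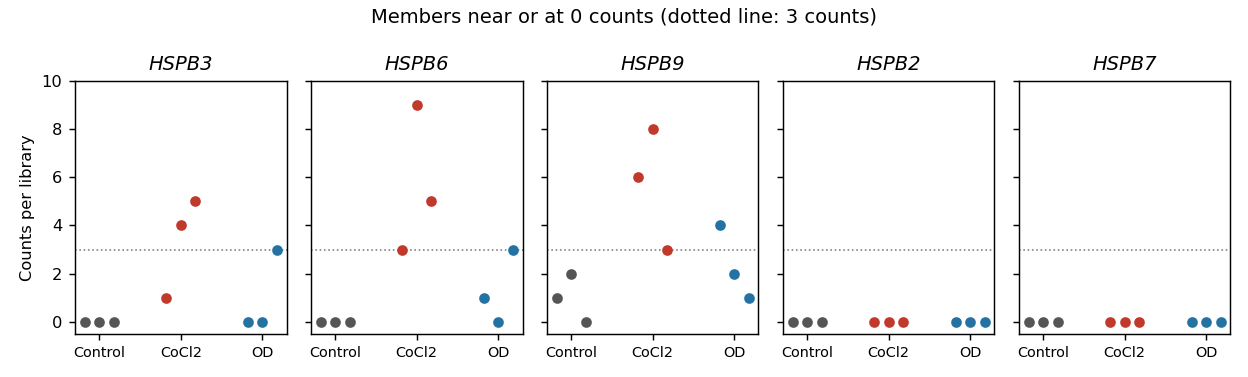
Raw counts of HSPB3, HSPB6, HSPB9, HSPB2 and HSPB7 in the 9 libraries (points), with a dotted line at the limit of 3 counts. Of HSPB3, HSPB6 and HSPB9, control libraries held 0 to 2 counts and CoCl2 libraries 1 to 9, and HSPB2 and HSPB7 lie at 0.

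HSPB6, known from heart and smooth muscle, lies on chromosome 19 from 35754566 to 35758079 on the minus strand and had 0 counts in each control replicate, 3, 9 and 5 counts in CoCl2, and 1, 0 and 3 counts in OD. HSPB3, an intronless muscle gene on chromosome 5 from 54455699 to 54456377 on the plus strand, had 0 counts in each control replicate, 1, 4 and 5 counts in CoCl2, and 0, 0 and 3 in OD. HSPB9, the testis member on chromosome 17 from 42122804 to 42123352 on the plus strand, had 1, 2 and 0 counts in control, 6, 8 and 3 in CoCl2, and 4, 2 and 1 in OD. In counts, every CoCl2 library was above every control library for each of these 3 genes, by as little as 1 count. Among the genes that passed the filter 40.5% lay so in CPM, and no share was taken over genes at such low counts. The CoCl2 mean was 2.40 times the mean control limit of 3 counts for HSPB6 and 1.33 times for HSPB3. These values leave out the counting error of the CoCl2 libraries and are not firm lower bounds. HSPB3 in CoCl2 replicate 1 was at 0.062 CPM, below the control limit of 0.147 to 0.168 CPM. Without CoCl2 replicate 2 the HSPB6 and HSPB3 means were 1.41 and 1.02 times that limit, in a check added after seeing the data. HSPB9 had 6.70 times its control level in CoCl2, with a 95% counting interval of 1.94 to 35.7, and leaving out single libraries gave 4.60 (without control replicate 3) to 12.9 (without control replicate 2). Against OD the CoCl2 ratios were 5.60 (1.83 to 22.9) for HSPB6, 4.39 (1.13 to 24.8) for HSPB3 and 3.1997 (1.26 to 9.13) for HSPB9. These ratios rested on single libraries, with 15.8 for HSPB6 without OD replicate 3 and 3.604 without CoCl2 replicate 2, 2.83 for HSPB3 without OD replicate 2, and 4.87 for HSPB9 without OD replicate 1. When the filter was left out, 36105 genes were fitted, and edgeR called all 3 higher in CoCl2 than in control, with adjusted p of 4.25e-05 for HSPB6, 0.00292 for HSPB3 and 0.00566 for HSPB9. DESeq2 also called them, at 0.00148, 0.0267 and 0.0321. In the unfiltered edgeR fit 8957 genes were called in this comparison, 49.5% of these calls higher. DESeq2 on all 9 libraries called 7705, 51.7% of these higher. For CoCl2 against OD the same edgeR fit gave adjusted p of 0.00987 for HSPB6, 0.108 for HSPB3 and 0.0552 for HSPB9, and DESeq2 gave 0.0698, 0.277 and 0.127, so HSPB6 was called by edgeR alone. The libraries of HSPB3 and HSPB9 overlapped between CoCl2 and OD. Of the exonic bases of HSPB6, 38.3% are shared with an antisense transcript, and the counting's strand setting is not given in the sources used here.

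Small heat-shock proteins act beside other heat-shock genes, of which 22 were listed and all passed the filter. With CoCl2 16 of these 22 were called higher and none lower, against 19.9% and 23.4% of all tested genes, with a median log2 fold change of 1.77 against -0.049 over all tested genes. The 16 include HSPA6, which passed the filter through its CoCl2 libraries alone. Its call is therefore not independent of the filter. Below the fold threshold, 3 more were higher and 3 were lower at an adjusted p under 0.05 by edgeR, the lower ones being HSPE1 at -0.99, HSPD1 at -0.60 and FKBP4 at -0.14. The 4 with the greatest changes were HSPA6, HSPA1A, HSPA1B and BAG3. HSPA1A, a stress-induced HSP70, rose from 32.4 ± 2.26 to 4954 ± 245 CPM (SD, n = 3), a log2 fold change of 7.26 with a standard error of 0.057. HSPA1B, its near-identical copy, rose by 6.51 on the log2 scale, and reads may be split between the pair. BAG3 rose by 3.67, from 47.9 ± 2.15 to 611 ± 25.5 CPM. HSPA6, an HSP70 gene barely expressed without stress, was at 0.053 CPM in control, below the limit of 3 counts, and at 212 ± 6.15 CPM in CoCl2. CRYAB, at 5.03, lay between HSPA1B and BAG3 in fold change, and HSPB8 and HSPB1 had smaller changes than these 4 genes.

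With OD 5 of the 22 were called lower, against 4.16% of all genes, with a median log2 fold change of -0.61 against -0.010 over all genes. The HSPA6 counts were 1 per control library and between 5 and 12 in OD, and the gene passed the filter through its CoCl2 libraries alone, so its call as higher in OD is not used. Without the CoCl2 libraries it was not tested and 5 of the list were called. Below the fold threshold 12 more were lower and 3 higher at an adjusted p under 0.05 by edgeR. The 5 called lower were CHORDC1 at -1.23, HSPA1L at -1.23, FKBP4 at -1.21, HSPE1 at -1.13 and HSPH1 at -1.11 on the log2 scale, which are chaperones or co-chaperones. HSPH1, a nucleotide exchange factor of HSP70, was at 372 ± 21.1 CPM in control, 2382 ± 135 CPM in CoCl2 and 172 ± 5.11 CPM in OD. It was thus higher in CoCl2 and lower in OD, as HSPB1 was with smaller changes. Between the treatments 19 of the 22 were called higher in CoCl2 and none lower, against 17.5% and 23.8% of all genes, with a median log2 difference of 2.40. These 19 again include HSPA6, whose call is not independent of the filter.

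**Figure D5:**
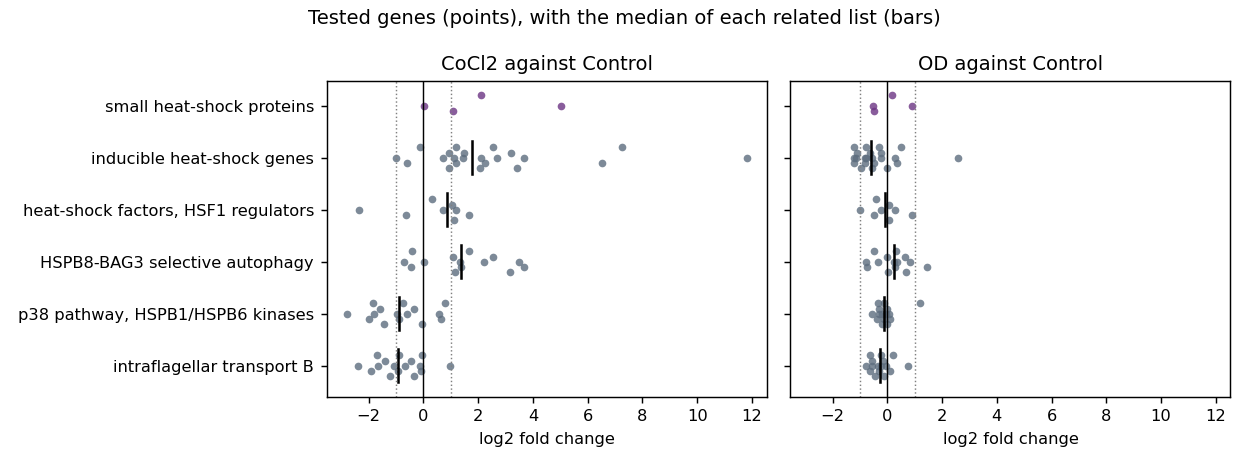
Log2 fold changes of the tested genes (points) for the 4 tested small heat-shock proteins and 5 related lists, in CoCl2 against control and OD against control, with a bar at the median of each related list and dotted lines at the fold threshold. In CoCl2 the medians run from -0.91 for intraflagellar transport complex B to 1.77 for other inducible heat-shock genes, and the points of HSPA6 rest on control counts below the limit of 3.

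Among 8 heat-shock factors and regulators of HSF1, 4 were called higher and 1 lower with CoCl2, against 19.9% and 23.4% of all tested genes, with a median log2 fold change of 0.87. None was called with OD (median -0.089). The 4 were SIRT1 at 1.66, EP300 at 1.19, DAXX at 1.12 and HSF2 at 1.04. HSF5 fell by 2.36, from 0.883 CPM in control to 0.168 CPM in CoCl2, which is near the limit of 3 counts. It was highest in control, with 0.442 CPM in OD, so its call is not independent of the filter. HSF1 itself went from 42.3 ± 0.501 to 69.0 ± 2.89 CPM (SD, n = 3), a log2 fold change of 0.71 with a standard error of 0.056, not past the fold threshold. In OD it was at 44.02 ± 2.30 CPM, with an adjusted p of 0.359 by edgeR.

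The list of HSPB8-BAG3 selective autophagy held 15 genes, of which 14 were tested. With CoCl2 10 were called higher and none lower, against 19.9% and 23.4% of all tested genes, with a median log2 fold change of 1.36. STUB1, HDAC6 and TFEB were lower by edgeR at an adjusted p under 0.05, at -0.45, -0.40 and -0.72, below the fold threshold. After BAG3, the greatest changes were those of MAP1LC3B at 3.49 and SQSTM1 at 3.15, which encode the autophagosome protein LC3B and the cargo receptor p62, and of the constitutive HSP70 gene HSPA8 at 2.53. With OD 1 was called higher, WIPI1, a phosphoinositide-binding autophagy protein, at 1.45, against 9.09% of all genes, and the median was 0.26. Below the fold threshold 6 more were higher, led by MAP1LC3B at 0.83, and 4 lower at an adjusted p under 0.05 by edgeR. In CoCl2, WIPI1 stood at 8.66 ± 1.02 CPM (SD, n = 3) against 8.63 ± 1.04 CPM in control and was not called, unlike the 10 called there. BAG3 and HSPA8 stand on both this list and that of heat-shock genes.

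HSPB1 and HSPB6 are phosphorylated by stress and cyclic AMP kinases. Of 17 genes listed for the p38 pathway and these kinases, 15 were tested. With CoCl2 6 were called lower and none higher, against 23.4% and 19.9% of all tested genes, with a median log2 fold change of -0.90. Below the fold threshold 4 more were lower and 3 higher at an adjusted p under 0.05 by edgeR, the higher ones being MAP2K3 at 0.79, PRKD2 at 0.63 and MAPKAPK2. The greatest decreases were in MAP2K6, a kinase that activates p38, at -2.81, PRKACA, a catalytic subunit of protein kinase A, at -1.99, MAPKAPK3 at -1.84 and MAPK12 at -1.81. MAPKAPK2, the main kinase of HSPB1, went from 114 ± 4.51 to 169 ± 5.59 CPM (SD, n = 3), a log2 fold change of 0.57 under the fold threshold. With OD 1 was called higher, the p38 isoform MAPK11, by 1.20 on the log2 scale, against 9.09% of all genes, and the median was -0.14. Below the fold threshold 5 were lower.

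HSPB11 belongs to intraflagellar transport complex B, for which 16 other genes were listed, and all 16 passed the filter. With CoCl2 7 were called lower and none higher, against 23.4% and 19.9% of all tested genes, with a median log2 fold change of -0.91, while HSPB11 had 0.031. Below the fold threshold 6 more were lower and 1 higher at an adjusted p under 0.05 by edgeR, the latter IFT20 at 0.96. IFT172 fell from 15.4 ± 1.00 to 2.96 ± 0.303 CPM (SD, n = 3), a log2 fold change of -2.38 with a standard error of 0.12. IFT27, the direct partner of HSPB11, fell by 1.91 on the log2 scale, from 3.79 ± 0.410 to 1.01 ± 0.355 CPM, and IFT46 and TTC30B fell by 1.68 and 1.64. With OD none of the 16 was called, 8 were lower and 1 higher below the fold threshold, and the median was -0.26, where HSPB11 had -0.49. No test compared HSPB11 with these genes.

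The genes whose pattern over the 9 libraries was most like those of CRYAB, HSPB8 and HSPB1 were found by the root mean square distance of centred log2(CPM + 1), among 13429 genes of at least 1 CPM on average. For CRYAB they were BAG3 at 0.157, DEDD2 at 0.169 and MAFG at 0.171. The 1 added to each CPM shrinks the change of CRYAB, which was at 0.545 CPM in control. Its fitted log2 fold change with CoCl2 was 5.03, against 3.67 for BAG3. CRYAB counts per count of BAG3 went from 0.0115 ± 0.0052 in control to 0.0295 ± 0.0018 in CoCl2 (SD, n = 3), without overlap. In OD this ratio was 0.0171 ± 0.0044 and overlapped control. The distance of CRYAB to BAG3 thus does not show equal fold changes. For HSPB8 they were SLC3A2 at 0.034, CHMP5 at 0.045 and ZNF408 at 0.048. For HSPB1 they were AP003327.2 at 0.082, C12orf10 at 0.085 and ZSCAN32 at 0.096. The distance grows with the size of a change, so values are to be read within 1 member only.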

How the data were processed

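Messenger RNA libraries were made with a stranded kit and sequenced on 1 end with 75-base reads. The authors checked the reads with FastQC 0.11.9, trimmed adapters with cutadapt 2.10, mapped them with STAR 2.7.5b on GRCh38 and counted them on GENCODE genes; the counting tool, its strand setting and its treatment of reads that map to several places are not given in the sources used here. The deposited values are raw counts per gene symbol, whole numbers with 1 column per library, and no sample column was left out. The labels give the groups. The study describes the 3 replicates of a group as biological, so p-values measure the spread between cultures of 1 line.

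Low counts were removed by filterByExpr of edgeR 4.0.16 (R 4.3.3), which left 15944 of 60591 symbols, and libraries were scaled by TMM. All 9 libraries were then fitted together by the robust quasi-likelihood method, and p-values were adjusted after Benjamini-Hochberg over every tested gene. The fit was tested on simulated data. CPM are scaled by TMM factors. Every pair of replicates differed beyond sampling noise (chi-square over its degrees of freedom, 1.74 to 3.05). Counting intervals and the limit of 3 counts leave out all error but that of counting. Coordinates, exon lengths and overlaps came from GENCODE release 44 on GRCh38 and promoters from RefSeq on GRCh38.p14. The study made its counts on an earlier GENCODE release, so the shares of exonic bases may differ from those that applied in counting.

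The genes, related lists and tests were chosen with earlier results of these data known. The genes named are the 9 members, the 4 called genes with the greatest changes in each related list, those behind a count of 5 or fewer, the genomic neighbours, and the 3 genes nearest each tested member, which are not reported here for HSPB11. HSF1, MAPKAPK2, KRT8, KRT18, HSPBAP1, the genes named below the fold threshold, the cell type markers named and the values of WIPI1 with CoCl2 were added after their values were seen. Alternatives were DESeq2 1.42.0, other scalings, filters and call rules, a replicate block, and leaving out each library.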

Additional observations from a re-analysis of the deposited data

How the results depend on the processing

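The 3 calls in CoCl2 against control and the 3 in CoCl2 against OD held in all leave-one-out settings, with RLE factors and with the fit on 6 libraries. With CoCl2 against control 6 members were called by DESeq2 on 9 or on 6 libraries and without a count filter, which adds HSPB3, HSPB6 and HSPB9, and 2 by library size alone or by glmTreat (both without HSPB1). The setting of at least 10 counts in every library also left 2, since it drops CRYAB, which had 6 counts in a control library. With OD against control 0 to 1 members were called when single libraries were left out, with CRYAB called without control replicate 1 and without OD replicate 2, and 4 passed by adjusted p alone. Genes called with CoCl2 numbered 6891, and 13260 by adjusted p alone. Without a count filter 8957 were called, and by DESeq2 7705 on 9 and 7451 on 6 libraries. With OD the count was 2113, against 1134 with at least 10 counts in every library, 10466 by adjusted p alone and 965 by glmTreat, and for CoCl2 against OD it was 6580, against 13311 by adjusted p alone. The ratio of summed CPM for CoCl2 against control, 2.74, became 1.93 by library size alone, 2.96 without HSPB1, 3.66 without HSPB11 and 1.72 without HSPB8, the last chosen after seeing the data. For OD against control, 0.869 became 0.932, 0.953 and 0.713 in the same order of left-out genes. For CoCl2 against OD, 3.15 became 2.16 by library size alone, 3.84 without HSPB11 and 2.41 without HSPB8. HSPB11 changed sign in CoCl2 against OD by library size alone, at -0.027 on the log2 scale. In CoCl2 against control its 0.031 also changed sign, to -0.47 by library size alone, with an adjusted p of 2.86e-09 by edgeR. It was -0.034 without a count filter and -0.0035 without CoCl2 replicate 2, neither at an adjusted p under 0.05 by edgeR. By library size alone the CoCl2 calls went from 5 to 3 of the heat-shock factors and regulators, from 6 to 10 of the p38 pathway list and from 3 to 5 of the cytoskeletal list. The causes of these shifts were not tested beyond what each setting does by construction. DESeq2 gave no adjusted p for HSPB3 in OD against control.

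The labels number the replicates but name no shared batch. Deviations of same-numbered libraries correlated at -0.029 to 0.094, 0 of 9 above 0.1, and 4 of 9 libraries correlated best with their own number, so the numbers were not taken as pairs. With a replicate block 6901, 2115 and 6568 genes were called for CoCl2 against control, OD against control and CoCl2 against OD, and 3, 0 and 3 members, the same counts of members as without the block.

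Depth limits CRYAB in control and OD, at 6 to 27 counts per library, and HSPB3, HSPB6 and HSPB9, at 0 to 9.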

Other observations

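Small heat-shock proteins also bind the cytoskeleton, and 15 of 16 listed cytoskeletal and actin partners were tested. With CoCl2 1 was called higher and 2 lower, against 19.9% and 23.4% of all tested genes. Below the fold threshold 8 more were higher and 3 lower at an adjusted p under 0.05 by edgeR. The median log2 fold change was 0.26 against -0.049 over all tested genes. FLNC, an actin cross-linker known from muscle and a client of the BAG3 machinery, rose from 187 ± 4.69 to 746 ± 22.9 CPM (SD, n = 3), a log2 fold change of 2.00 with a standard error of 0.041. NES, an intermediate filament gene, fell from 125 ± 1.75 to 30.2 ± 2.69 CPM, and KRT20 fell from 4.49 ± 0.396 to 1.74 ± 0.978 CPM. With OD 1 gene was called lower, against 4.16% of all tested genes. It was ACTB, which encodes β-actin, from 4687 ± 259 to 2129 ± 87.9 CPM. Its log2 fold change was -1.14, against 0.10 with CoCl2, and the median of the list with OD was -0.23. The keratins KRT8 and KRT18, the main intermediate filaments of simple epithelium, had log2 fold changes of 0.35 and 0.26 with CoCl2 and were not called.

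Of 6 genes listed outside the members as relatives, pseudogenes or genes of similar name, 2 were tested. These were HSPBP1 and HSPBAP1, neither of which encodes a small heat-shock protein. HSPBP1, a nucleotide exchange factor of HSP70, rose with CoCl2 by 1.16 on the log2 scale, from 64.5 ± 0.829 to 144 ± 7.41 CPM (SD, n = 3), and was at 40.3 ± 3.83 CPM in OD. By library size alone it was not called. HSPBAP1 was at 11.1 ± 0.862, 9.79 ± 0.597 and 10.7 ± 0.940 CPM in control, CoCl2 and OD. CRYAA and ODF1 were at 0 counts in all libraries.

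The nearest annotated genes on either side of the members had changes in both directions. With CoCl2, SNX18 beside HSPB3 had a log2 fold change of -1.38, PROSER3 beside HSPB6 -1.19, DIO1 beside HSPB11 -2.11 and KAT2A and RAB5C on either side of HSPB9 -1.37 and 1.02, all called. DIXDC1 beside CRYAB had 0.77 and LRRC42 beside HSPB11 0.57, neither past the fold threshold, and SRRM3 beside HSPB1 had -0.46 with an adjusted p of 0.395 by edgeR.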
